A study of Danio rerio with 13 samples.

Results

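The regions described here carried a 6mA-IP-seq summit of the SYSY antibody in zebrafish embryos at the 64-cell stage (64C) and no summit of any other library of the study. DNA 6mA (N6-methyldeoxyadenosine) is an adenine with a methyl group, a mark well known from bacteria, which use it to tell their own DNA from that of invaders, and held to be rare in vertebrate DNA. The authors of the study reported that it builds up in early zebrafish embryos, peaks at about 64C and falls to a low level later. At 64C the zebrafish embryo is a small mound of dividing blastomeres that lives on maternal RNA and has not yet switched on most of its own genes. In 6mA-IP-seq, an anti-6mA antibody captures gDNA fragments, their sequences are set beside those of uncaptured input gDNA, and a summit is the point within a called peak where the captured DNA is most enriched.

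All embryos came from Tubingen zebrafish and were pooled for gDNA. Of the 8 IP libraries, 1 was made from 64C embryos with the SYSY antibody and 1 from 64C embryos with the Abcam antibody. Embryos at 11, 12 and 13 hours post fertilization (hpf) gave 2 SYSY libraries at each stage. Another 5 samples were inputs. As each antibody had 1 library at 64C, nothing could be tested across replicates, and antibody and library cannot be told apart. The values below are therefore descriptions, with 95% Wilson intervals for counting error alone.

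The 64C SYSY list held 79291 summits, the 64C Abcam list 53511 and the 6 lists of 11 to 13 hpf between 2439 and 7582. Depth is unknown, as reads were not used here, and a missing summit shows only that no peak was called there. Peak names of the 64C SYSY list and of the later lists carry different marks, and those of the 64C Abcam list carry none. Whether the marks stand for separate experiments is not stated. The 64C SYSY list had no summit on unplaced scaffolds and stopped short of the last summit of any library on 5 chromosomes, by 328275 to 14642093 bp. For reads that matched several places equally well, the authors kept 1 place at random, so that a summit in a repeat may belong to another copy. By their account most peaks lay in repeats. A matching summit of another library may thus have been placed at another copy. All positions are on danRer10 and count from 1. Its sequence and gene annotation were not used here, so that neither letters of DNA nor genes are given for the regions.

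Summits of all 8 IP libraries that followed each other within 250 bp on a chromosome were chained, which gave 63852 regions. Of these, 45491 held a 64C SYSY summit, and 31356 of them (68.9%) held no summit of the other 7 libraries. Bins of 100 kb with 20 or more 64C SYSY summits were set aside where that number was also 10 or more times the number of 64C Abcam summits plus 1. These 140 dense bins held 18.6% of the SYSY summits. What remained were 28298 regions, here called SYSY-only regions. They made up 66.9% of the 42320 SYSY regions outside the dense bins, 62.2% (61.8 to 62.7%) of all SYSY regions, and held 33417 SYSY summits, or 42.1% (41.8 to 42.5%) of the list. The regions were chosen by the presence and absence of called summits, so that these shares restate the choice. With summits below the median score of their list removed, 10547 regions met the rule.

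Regions private to 1 library were more common at 64C than later. For the Abcam list, 15310 of 29702 regions (51.5%) had no summit of another library. Replicates 1 and 2 had private shares of 6.75% and 3.50% at 11 hpf. The shares were 6.14% and 5.44% in the 12 hpf libraries, and those of 13 hpf had 6.46% and 3.13%. The later lists are shorter than the 64C lists, and a short list has more summits of other libraries around it to match. Each later list also had a replicate of its own stage and antibody to match, while neither 64C list had one. The replicates of a later stage had 1 input sample between them, while each 64C library had its own. List length, replicates and inputs thus move with these shares, and their parts in them were not tested. For comparison with the SYSY-only regions, 3 other classes were formed from the same chains: 7662 regions with summits of both antibodies at 64C and none at 11 to 13 hpf, 6473 regions with a 64C SYSY summit and a summit of at least 1 later library, and the 15310 regions with Abcam summits only.

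SYSY-only regions were mostly single summits. Of the 28298 regions, 25146 (88.9%, 88.5 to 89.2%) held 1 summit, 2239 held 2 and 493 held 3. A further 17 held 10 or more. Among the regions with both antibodies, 67.2% (66.1 to 68.2%) held 1 SYSY summit, and among those with a later library 36.5% (35.3 to 37.7%). The share was higher in SYSY-only regions than in regions with both antibodies on 25 of 25 chromosomes. Regions with Abcam summits only were much like SYSY-only regions in this measure, as 84.8% (84.2 to 85.3%) of them held 1 Abcam summit. A region with more summits is also longer and thus has more positions at which a summit of another library could join it. In the shared classes, a summit of another library can also link SYSY summits more than 250 bp apart into 1 region. SYSY-only regions hold no such summit, so that the difference in these shares is partly set by the rule.

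Each summit carries a score, whose unit the lists do not name. It was taken as the −log10 of the q-value from the comparison of the IP with its input, since no list has a value below 2, which on that scale is the authors' cutoff. The best score of a SYSY-only region had a median of 3.74, with an interquartile range of 2.85 to 5.68. Regions with both antibodies had a median of 5.18 and regions with a later library 8.94. Regions that the same list contributed in the dense bins had a median of 12.3. The best score is the highest among the SYSY summits of a region, and more summits give more scores to choose from. In the same order, these 4 classes held 1.18, 1.59, 3.00 and 4.67 SYSY summits per region on average. The part of summit number in the order of the medians was not tested. SYSY-only regions had the lower median on 25 of 25 chromosomes when set against regions with both antibodies. With summits below the median of the list removed, the median was 6.95. The score comes from the same peak calling as the rule, so that it is a description and no support for the choice.

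**Figure D1:**
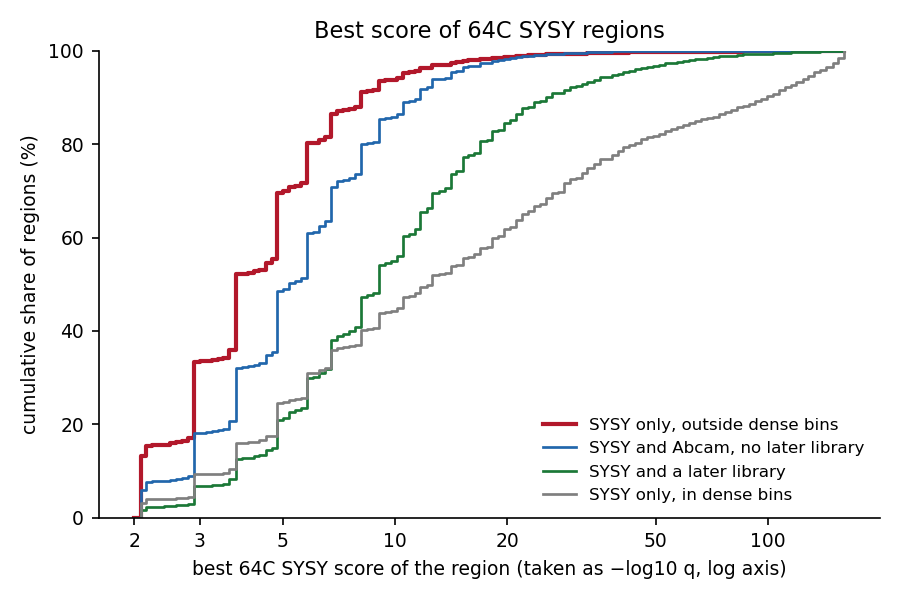
Cumulative share of regions (y axis, %) against the best 64C SYSY score of the region (x axis, score taken as −log10 of the q-value, log axis) in 4 classes of 64C SYSY regions. The curve of the SYSY-only regions outside dense bins lies to the left of the others up to a score of about 20, with a median of 3.74, against 5.18 with both antibodies and 8.94 with a later library, and rises in steps at a few common scores.

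Seen from the whole list, the share of summits that lay in SYSY-only regions fell with the score. In 10 equally large groups of the 79291 summits by rising score, 70.0% (68.9 to 71.0%) of the group with the lowest scores were in SYSY-only regions, 49.6% (48.5 to 50.7%) of the fifth group and 5.35% (4.87 to 5.86%) of the group with the highest scores. No group reversed this order. The dense bins, which the rule leaves out, hold many of the highest scores, so that the last value is partly set by the rule.

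**Figure D2:**
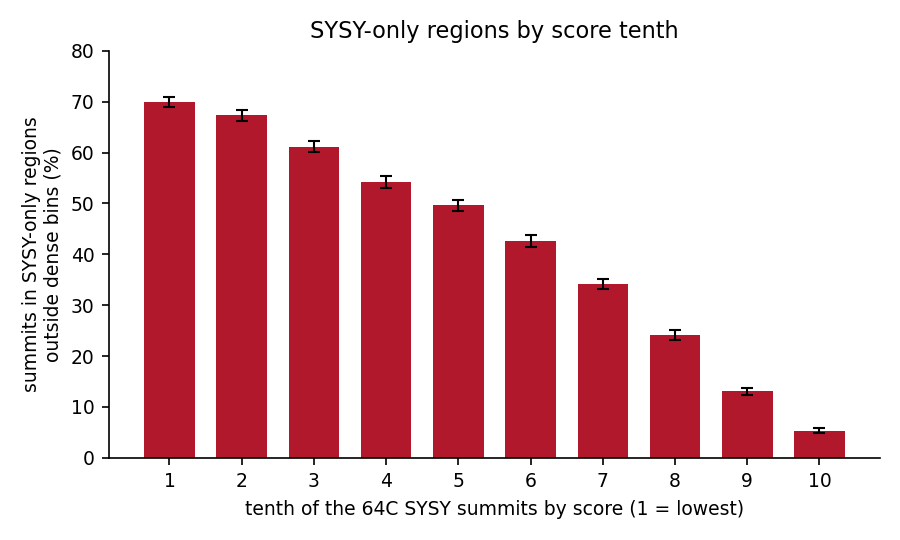
Share of 64C SYSY summits that lie in SYSY-only regions outside dense bins (y axis, %) in 10 equally large groups ordered by score from lowest to highest (x axis). Bars are shares and error bars are 95% Wilson intervals, and the share falls at every step from 70.0% to 5.35%.

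The best scores of SYSY-only regions took 862 distinct values, but most regions fell on few of them. The 10 commonest scores of the 64C SYSY list, which run from 2.06 to 11.31 in steps that widen with the score, were the best score of 21565 of the 28298 regions (76.2%, 75.7 to 76.7%). In regions with both antibodies this share was 67.4% (66.4 to 68.5%) and in regions with a later library 43.3% (42.1 to 44.5%). These 10 values are low ones. Best scores up to about 11.7 were held by 96.3% of SYSY-only regions, 91.9% with both antibodies and 65.5% with a later library. The share on common values thus moves with the score, whose part in it was not tested. Among regions of a single summit the share was 78.0% in SYSY-only regions, 70.8% in regions with both antibodies and 53.9% in regions with a later library, so that the classes kept this order among single summits. The 4 commonest best scores of SYSY-only regions were 2.85 with 4467 regions, 3.74 with 4363, 4.68 with 3765 and 2.06 with 3559. Of all list summits at a score of 2.06, 74.4% lay in SYSY-only regions, and of those at 11.31, 22.4% did.

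SYSY-only regions with high scores were few. A best score of 20 or more was reached by 372 of them (1.31%), and a score of 40 or more by 101 (0.357%), spread over all 25 chromosomes in each case. The share at 20 or more was near that of regions with both antibodies, 130 of which (1.70%) reached it. The highest best score was 76.3 with both antibodies and 159 in SYSY-only regions. In regions with a later library, the upper 10% of best scores began at 25.04. SYSY-only regions with 20 or more held several summits more often, since 40.6% of them held a single summit against 88.9% of all SYSY-only regions. A region with several summits also has more scores from which its best is taken. Of the 101, 12 lay in a bin next to a dense bin. Such neighbouring bins held 3.40 SYSY-only regions on average with a median best score of 4.68, against 2.14 and 3.74 in other bins.

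The best-scoring region was a single summit at position 53293916 of chromosome 17, with a score of 159. To this rounding, 159 was also the highest score of the whole 64C SYSY list and of its regions in dense bins. The chromosome 17 region lay 0.0511 Mb from the end of the chromosome and 8844 bp from the nearest summit of another library. The 4 next regions had best scores that also rounded to 159. On chromosome 20 these were 3 summits at chr20:4437807-4438026, at 56697 bp from the next Abcam summit, and 11 summits at chr20:6460712-6462281 with a median score of 122. The others were 3 summits at chr5:59680836-59681295 and 6 summits at chr17:45194266-45194883. In contrast to the class as a whole, 4 of these 5 regions had several summits.

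The region with the most summits lay at chr8:44390705-44399193. It ran over 8489 bp with 69 summits, a best score of 157 and a median score of 47.9, and its nearest Abcam summit was 29728 bp away. It lay in a bin with 74 SYSY and 8 Abcam summits, beside a dense bin, and these Abcam summits kept the bin itself below the ratio of 10. The next in number were chr5:47141469-47144154 with 19 summits and a best score of 147, chr17:45196584-45198762 with 17 summits and 128, chr3:1613426-1615388 with 16 summits and 33.6, and chr16:2759535-2761379 with 14 summits and 112. The second chromosome 17 region began 1701 bp past the end of the one named above, with 2 further SYSY-only regions between them, and both lay in a bin beside a dense bin. Of all SYSY-only regions, 32 were wider than 1000 bp.

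One SYSY-only region lay outside the numbered chromosomes, a summit at position 547 of the mitochondrial genome with a score of 2.42. It was the single summit on that genome in any of the 8 lists.

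By the rule, no SYSY-only region had a summit of another library within 250 bp, so that the distances given here are partly set by the choice. Most regions lay much farther than 250 bp from such a summit. The median distance to the nearest summit of any of the 7 other libraries was 16004 bp, with an interquartile range of 4030 to 43300 bp, and 28.1% (27.5 to 28.6%) had such a summit within 5 kb. The Abcam list supplied most of these neighbours. The nearest Abcam summit was at a median of 18261 bp and within 5 kb of 25.04% (24.5 to 25.6%) of the regions. Of the same SYSY-only regions, 14.0% had a summit of a later library within 5 kb. With the Abcam list left out of the data, the rule gave a larger set of 37343 regions. Of that set, 18.2% had a summit of a later library within 5 kb. Among the single later libraries, the median distance was shortest for replicate 1 of 11 hpf, the longest list, at 113548 bp with 8.93% of regions within 5 kb, and greatest for replicate 2 of 13 hpf, the shortest list, at 384925 bp with 3.36%. The 4 libraries between them, with medians of 186194 to 230332 bp, were not strictly ordered by list length.

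The most remote SYSY-only regions lay inside chromosomes 6 and 7. At chr6:21214676-21214870, 2 summits with a best score of 12.3 had no summit of another library within 395615 bp, and at position 21215251 of the same chromosome a summit with a score of 4.35 had none within 395234 bp. The third was a summit at position 2922381 of chromosome 7 with a score of 2.85, at 393276 bp from the nearest other library.

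Seen from the later lists, the share of summits that had a SYSY-only region within 5 kb was nearly the same in all 6, from 33.8% (32.3 to 35.4%) in replicate 1 of 13 hpf to 36.2% (35.1 to 37.3%) in replicate 1 of 11 hpf. The intervals of these libraries overlapped. This share was 28.4% (28.0 to 28.7%) for the Abcam list, below all 6 lists of later stages. SYSY-only regions were densest near the chromosome ends, and the lists were not compared by the position of their summits. The parts of antibody, stage and position in this difference were not tested. The Abcam list has summits on scaffolds and past the point where the SYSY list stops, as the later lists do.

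Set against classes that also lack later summits by their definition, SYSY-only regions lay farthest from those of 11 to 13 hpf outside the dense bins. Their median distance to the nearest later summit was 58966 bp, against 26322 bp for regions with both antibodies and 45646 bp for regions with Abcam summits only. Within 5 kb, 14.0% (13.6 to 14.4%) of SYSY-only regions, 24.9% (23.9 to 25.9%) of regions with both antibodies and 16.9% (16.3 to 17.5%) of Abcam-only regions had a later summit. The median was larger in SYSY-only regions than in regions with both antibodies on 25 of 25 chromosomes. These 2 classes also differed in position, with 18.8% of SYSY-only regions and 29.5% of regions with both antibodies within 2 Mb of a chromosome end. On 20 chromosomes, regions with a later library numbered 38.8 per Mb in the outermost 0.5 Mb and 2.11 per Mb beyond 10 Mb. The part of position in these distances was not tested. SYSY-only regions of the dense bins lay farther still, at a median of 116036 bp. The Abcam-only regions do not cover the same sequence. Of 15310, 14174 lay on numbered chromosomes, some of these past the point where the SYSY list stops, and 394 had no later summit on their sequence. Their distances were not compared over the covered part alone, so that their order against SYSY-only regions there is not known.

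**Figure D3:**
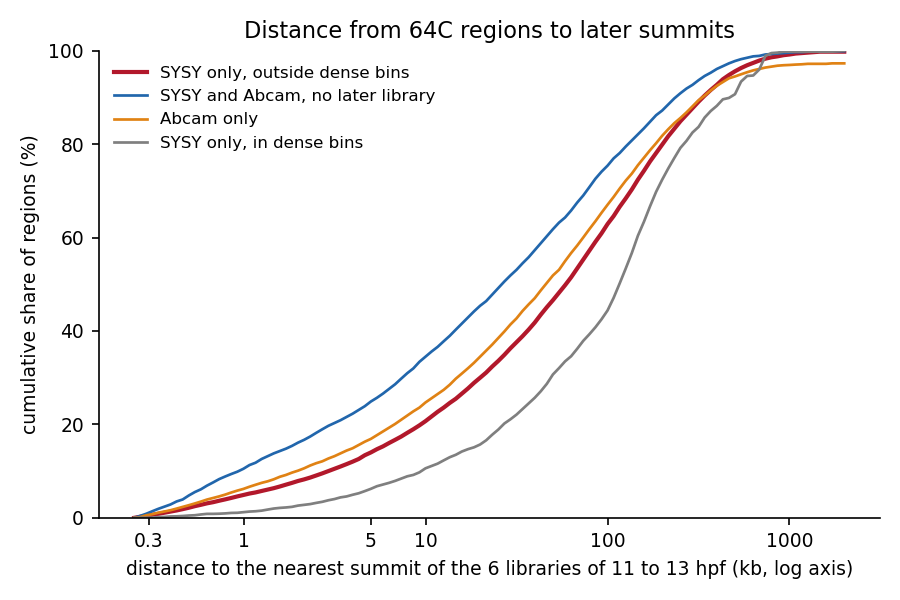
Cumulative share of 64C regions (y axis, %) within a given distance of the nearest summit of the 6 libraries of 11 to 13 hpf (x axis, kb, log axis). The curve of the SYSY-only regions outside dense bins lies below that of regions with both antibodies, with 14.0% against 24.9% within 5 kb, and near that of the Abcam-only regions with 16.9%.

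SYSY-only regions were also set against regions with both antibodies within bands of score. Among regions with a best score from 2 to under 3, 12.5% (11.8 to 13.1%) of SYSY-only regions and 20.9% (18.9 to 23.1%) of regions with both antibodies had a later summit within 5 kb, and from 10 to under 20 it was 19.1% (17.1 to 21.3%) of SYSY-only regions and 27.6% (24.8 to 30.6%) of regions with both antibodies. In each of the 6 score bands the share was lower in SYSY-only regions. The bands do not take position along the chromosome into account, and its part in this order was not tested. Within the SYSY-only regions, the median distance to a later summit was 65972 bp in the lowest band and 37985 bp in the band from 10 to under 20, and 40102 bp in the band of 20 or more.

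Regions just inside and just outside the threshold of 250 bp were set side by side. Between 251 and 300 bp from the nearest summit of another library there were 384 SYSY-only regions with a median best score of 4.68, of which 83.6% held 1 summit. Just inside, 176 regions outside the dense bins were kept out of the class by a summit whose closest distance to a SYSY summit was 201 to 250 bp, with a median of 3.74 and 88.1% of single summits. One step farther on each side were 282 regions at 151 to 200 bp, with a median of 4.63, and 345 SYSY-only regions at 301 to 350 bp, with 4.68. The number of regions was thus lowest just inside the threshold and highest just outside it. At the threshold of the dense bins, 23 bins with 15 to 19 SYSY summits and no Abcam summit were not set aside and held 204 SYSY-only regions with a median best score of 4.68. Another 42 bins with at least 20 SYSY summits and a ratio of 5 to under 10 held 494 such regions with a median of 5.68. Few peaks could cross the border of the class. Of the 30705 peaks with a summit in a SYSY-only region, 29068 (94.7%) had 1 summit and thus lay in 1 region. Among all SYSY-only regions, 63 (0.223%) shared their peak number with a region that also held a summit of another library.

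Along the chromosomes SYSY-only regions were densest at the ends. The first and last 2 Mb make up 7.46% of the length of the 25 chromosomes and held 18.8% (18.3 to 19.2%) of SYSY-only regions. This share was below that of regions with both antibodies, 29.5% (28.4 to 30.5%), and that of regions with a later library, 38.4% (37.2 to 39.6%). It was lower than in regions with both antibodies on 24 of 25 chromosomes, and on chromosome 3 SYSY-only regions had 14.7% and regions with both antibodies 13.8%. Abcam-only regions had 20.04% (19.4 to 20.7%). On the 20 chromosomes where the SYSY list reaches the end, a choice made after seeing the data, SYSY-only regions had 20.04% (19.5 to 20.6%) and Abcam-only regions 18.8% (18.1 to 19.5%), so that the order of these classes turned round, while regions with both antibodies stayed above them at 30.5% (29.4 to 31.7%). The rule moves SYSY regions with a close summit of another library to the shared classes, and all classes compared here were denser at the ends. The share of SYSY-only regions on the 25 chromosomes was 22.1% with gaps of 100 bp and 16.2% with gaps of 500 bp. The lower share than in the shared classes can thus be set in part by the rule, whose part was not tested.

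Over these 20 chromosomes the density of SYSY-only regions was 92.5 per Mb in the outermost 0.5 Mb, 54.6 from 0.5 to 1 Mb, 38.6 from 1 to 2 Mb, 23.99 from 2 to 5 Mb, 18.9 from 5 to 10 Mb and 17.1 farther in. Regions with both antibodies had 34.5 per Mb in the outermost band and 3.32 beyond 10 Mb, and regions with a later library 38.8 and 2.11. Abcam-only regions had 37.8 and 8.64. The density beyond 10 Mb was thus 18.5% of that in the outermost band for SYSY-only regions, against 9.62% for regions with both antibodies, 5.43% for regions with a later library and 22.9% for Abcam-only regions. The part of the rule in these differences was not tested either.

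**Figure D4:**
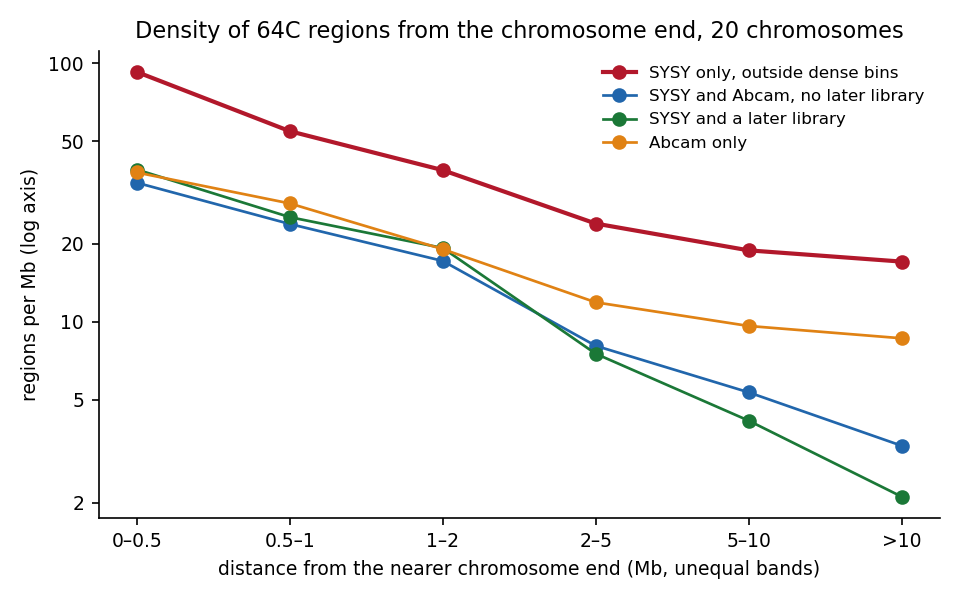
Density of 64C regions (y axis, regions per Mb, log axis) in 6 bands of distance from the nearer chromosome end (x axis, Mb) on the 20 chromosomes where the 64C SYSY list reaches the end. The line of the SYSY-only regions falls from 92.5 to 17.1 per Mb, less steeply on the log axis than that of regions with both antibodies, from 34.5 to 3.32 per Mb.

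The share of SYSY-only regions near the ends differed with score and summit number. The share within 2 Mb of an end was 16.8% (16.1 to 17.6%) for SYSY-only regions with a best score from 2 to under 3 and 23.6% (21.4 to 25.9%) for those from 10 to under 20, with 22.6% (18.6 to 27.1%) for those of 20 or more. It was 18.1% (17.6 to 18.5%) for regions with 1 summit, 24.5% (22.7 to 26.3%) for those with 2 and 26.2% (23.05 to 29.6%) for those with 3 to 4. The 230 regions with 5 or more summits had 19.6% (14.96 to 25.2%), near the value for 1 summit, so that the share did not rise throughout. In regions with both antibodies the share was 25.4% (23.1 to 27.7%) in the lowest score band and 30.4% (27.5 to 33.4%) in the band from 10 to under 20, above SYSY-only regions in every one of the 6 bands. The part of the rule in this order was not tested.

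From chromosome to chromosome the density of SYSY-only regions outside the dense bins was fairly even. The dense bins, which the rule leaves out, numbered from 2, as on chromosome 1, to 15 on chromosome 4. Their length was still counted, so that the evenness is partly set by the rule. Over the part of each chromosome that the SYSY list covers it lay between 19.1 per Mb on chromosome 9 and 26.2 per Mb on chromosome 4, with a mean of 21.4 ± 1.67 (SD over 25 chromosomes), a spread of 7.83% of the mean. Chromosome 25 followed with 24.99 and chromosome 1 with 24.6 per Mb. Regions with both antibodies lay between 4.52 and 6.91 per Mb, a spread of 10.9%, and regions with a later library between 3.59 and 6.30 per Mb, a spread of 13.8%. Since these classes have fewer regions per chromosome, counting error adds more to their spread. Divided by the whole length as seen in any library, chromosome 4 had 21.2 SYSY-only regions per Mb, because the SYSY list ends there well before the others.

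**Figure D5:**
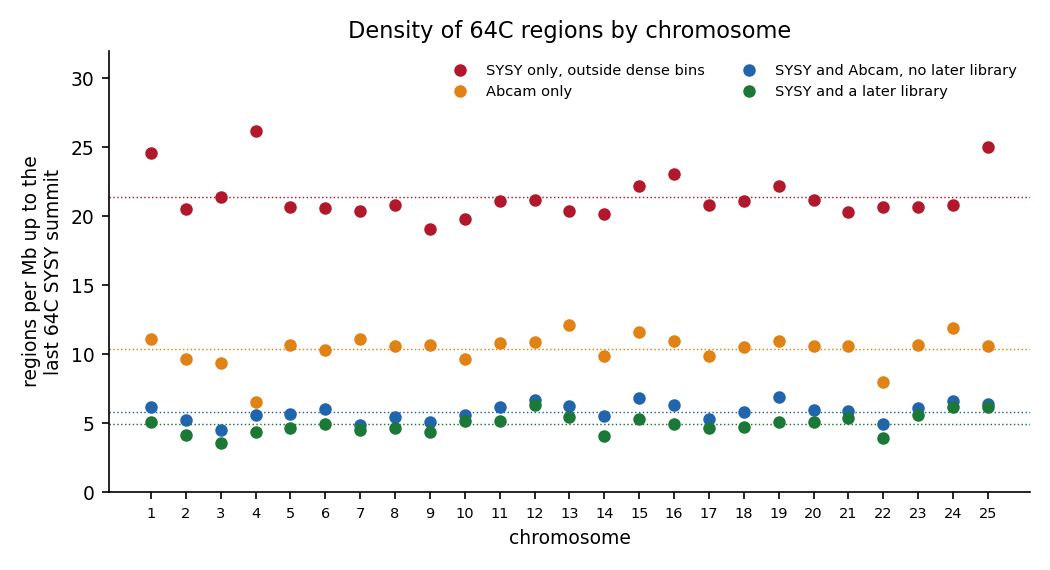
Regions per Mb (y axis) on each of the 25 numbered chromosomes (x axis), over the part that the 64C SYSY list covers, for SYSY-only regions outside dense bins and 3 other classes of 64C regions. Points are chromosomes and dotted lines are class means, and the SYSY-only regions lie between 19.1 and 26.2 per Mb with chromosome 4 highest, where Abcam-only regions are lowest with 6.55 per Mb.

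Chromosome 4, whose long arm is known for its load of repeats and heterochromatin, was not even along its length. SYSY-only regions numbered 27.4 per Mb in its first 10 Mb, 12.3 and 12.9 per Mb in the next 2 windows of 10 Mb, and 30.3, 34.5 and 38.8 per Mb in the 3 windows from 30 to 60 Mb. The dense bins, which the rule leaves out, held a further 11.3 regions with SYSY summits only per Mb from 20 to 30 Mb, nearly as many as the 12.9 counted there, so that the low value of this window rests in part on the rule. From 10 to 20 Mb there were none in dense bins, and from 30 to 60 Mb these bins held 3.70, 9.50 and 15.9 per Mb. Abcam-only regions went the other way, with 9.20 and 7.90 per Mb from 10 to 30 Mb and 2.40 to 3.20 per Mb from 30 to 60 Mb. Regions with both antibodies had 2.90 and 3.30 per Mb and then 5.50 to 5.60 per Mb in the same windows. Past 30 Mb of this chromosome, SYSY-only regions were thus denser and Abcam-only regions sparser than between 10 and 30 Mb. The largest gap between neighbouring SYSY-only regions of all chromosomes, 881756 bp from position 12930191 to 13811947, also lay on chromosome 4.

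SYSY-only regions were dispersed, with local groups. The gap from 1 to the next had a median of 22167 bp, 12.0% of the gaps were at most 1 kb and 35.3% at most 10 kb. To the next region of the same list, of any class, the median distance was 5057 bp, against 2904 bp for regions with both antibodies and 1885 bp for regions with a later library. No other SYSY region lay within 10 kb of 37.9% (37.4 to 38.5%) of SYSY-only regions, 30.2% (29.2 to 31.3%) of those with both antibodies and 25.6% (24.5 to 26.6%) of those with a later library.

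Of 13096 bins of 100 kb outside the dense bins, 2910 (22.2%) held no SYSY-only region, the mean was 2.16, and the variance was 3.03 times the mean. For regions with both antibodies 66.4% of the bins were empty, the mean was 0.582, and the variance was 2.19 times the mean. Both measures depend on the mean, so that they do not show which class was more clustered. At least 10 SYSY-only regions were found in 245 bins (1.87%), which held 12.5% of all. Of these bins, 151 (61.6%) lay within 2 Mb of a chromosome end and 94 elsewhere, on all 25 chromosomes.

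The fullest bins were of different kinds. The first, chr1:58400001-58500000, held 36 SYSY-only regions with a median best score of 5.43, beside 3 regions with both antibodies, 8 with a later library and 5 of the Abcam antibody alone. The second, chr16:36400001-36500000, lay far from the ends and held 35 SYSY-only regions with a median of 5.68, no region with both antibodies and none of the Abcam antibody alone. It held 2 regions with a later library. In all, 63 SYSY summits, 6 Abcam summits and 29 summits of later libraries lay in this bin. These Abcam summits kept the bin below the ratio that defines dense bins, so that its place here rests in part on that rule. The third was the first bin of chromosome 1, from 1 to 100000, with 34 SYSY-only regions and a median of 4.68, beside 7 regions with both antibodies, 4 with a later library and 5 of the Abcam antibody alone.

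Bins with SYSY regions that were shared with other libraries also held more SYSY-only regions. The mean was 11.3 per bin in 163 bins with at least 10 shared SYSY regions, 4.94 in 508 bins with 5 to 9, and 1.69 in 7050 bins with none. More than 2 Mb from the ends the means were 5.71 in 14 bins, 3.73 in 234 bins and 1.68 in 6944 bins. Abcam-only regions ran in the same direction, with 4.37, 3.00 and 0.717 per bin over all bins. As a description across the 13096 bins, which share their libraries and the rise towards the ends, the number of SYSY-only regions had a Spearman rho of 0.241 with regions of a later library, 0.211 with regions of both antibodies and 0.129 with Abcam-only regions. More than 2 Mb from the ends these values were 0.139, 0.121 and 0.0541 over 12140 bins.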

How the data were processed

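The data are summit lists of 6mA-IP-seq of Tubingen zebrafish embryos. Stages come from the sample titles, which name an antibody only for the Abcam IP and its input, as Ab. The names SYSY and Abcam are those that the authors give in their paper. Per the submitters' processing notes, reads were mapped to danRer10 with Bowtie 1.0 and peaks called with MACS2. For every IP library the authors compared IP with input reads, kept peaks below a false discovery rate of 0.01, and the deposited values were taken as the −log10 of the q-value of each summit, as no list has a value below 2, the −log10 of the cutoff. Scores were compared only within a list.

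Summits were chained with gaps of at most 250 bp, and dense bins were set from all summits. A region was left out when any of its SYSY summits lay in a dense bin. Distances run from the edges of a region to a summit. The last summit of any library was taken as the chromosome end. Equal scores were ordered by seeded random draws. The chaining, classes and distances were tested on simulated lists, in which 600 of 600 planted regions were recovered. Software was pandas 2.3.3 and NumPy 2.4.6 under Python 3.11.15, with SciPy 1.17.1 for rank correlations and matplotlib 3.10.9 for plots.

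The regions and the lists were chosen with earlier results of these data known. Regions named in the text are the 5 with the best score, the 5 with the most summits, the 3 farthest from other libraries and the 3 bins with most regions, and the mitochondrial summit was added after its value was seen. Sequence features and genes were not analysed here, since no danRer10 sequence or annotation was used.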

Additional observations from a re-analysis of the deposited data

How the results depend on the processing

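The number of SYSY-only regions stayed within 1.5 times of 28298 in 15 of 16 alternatives. Among these 15 it ran from 19863, with scores of at least 3, to 37825, with gaps of 100 bp. Several of them, such as leaving out 1 short later list, could change the number only a little. In the remaining alternative, with summits at or above the median score of their list, it was 10547. The share with 1 summit, 88.9%, was 96.4% with gaps of 100 bp and 86.0% with 500 bp, 87.4% with scores of at least 3, 82.7% with scores from the median up, 93.2% with 1 summit per peak, 84.5% with the dense bins kept, 89.9% without bins of at least 10 SYSY summits and 5 times the Abcam summits plus 1, 84.9% with the Abcam list left out and 86.9% with the lists of 11 to 13 hpf left out. In the same order where it moved, the median best score of 3.74 became 4.35 with gaps of 100 bp, 4.68 with scores of at least 3, 6.95 from the median score up, 4.35 with the dense bins kept and 4.35 without the Abcam list. The share within 2 Mb of an end, 18.8%, was 22.1% and 16.2% with gaps of 100 and 500 bp, 20.4% and 24.2% with the score limits, 17.1% with the dense bins kept, 19.5% with the wider exclusion, 21.7% and 19.4% without the Abcam list and without the later lists, and 20.04% on the 20 chromosomes covered to the end. With ends of 1 and 5 Mb it was 12.3% and 31.2%. The share with another library within 5 kb, 28.1%, was 39.1% and 22.5% with gaps of 100 and 500 bp, 29.7% with 1 summit per peak, 26.1% with the dense bins kept, 18.2% without the Abcam list and 25.8% without the later lists. Leaving out each replicate of 11 to 13 hpf in turn gave 28350 to 28667 regions and moved none of the other values beyond its interval. Score limits and left-out lists change the number of summits that can match, and causes beyond that were not tested. No paired analysis was possible because 64C has 1 library for each antibody and no result comes from a test. Depth is unknown, so that the lack of a summit cannot be read as the lack of 6mA.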
